A study of Drosophila melanogaster with 8 samples.

Results

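The genotype effect averaged over both sexes was estimated from heads of *Obp56h*-/- and *CSB* flies. All 8 libraries of the series entered this comparison, 4 of *Obp56h*-/- and 4 of *CSB*. For each gene, the log2 difference of *Obp56h*-/- from *CSB* was fitted in females and in males, and the mean of both differences was tested with edgeR's quasi-likelihood test. A gene belongs to the set described here if its mean effect had a Benjamini-Hochberg adjusted p under 0.05 over all genes tested while its adjusted p was 0.05 or more in females and in males. This gave 129 of 13536 genes tested (0.953%), 44 higher (0.325%) and 85 lower (0.628%) in *Obp56h*-/- heads. For the mean effect as a whole 261 genes passed (1.93%), and 132 of them also passed in at least 1 sex. Within females 140 genes passed (1.03%), within males 68 (0.502%), and 5 (0.0369%) passed the test of the difference between the sexes.

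*CSB* (Canton S-B) is the laboratory control line in whose background the null allele was made. Guide RNAs on either side of *Obp56h* directed Cas9 to remove the gene, which was exchanged for a marker insert. Its *3XP3* promoter drives the red fluorescent protein *DsRed* in the eye, and it also brings in *attP*, *loxP* and SV40-derived terminator elements. The groups were *Obp56h*-/- females, *Obp56h*-/- males, *CSB* females and *CSB* males, without further treatment, aged 3 to 5 days. Each group had 2 replicates, each a pool of 50 flies. The null genotype is 1 line and the control is 1 line, so the deletion, the insert and any other difference between the lines cannot be told apart. Whether the insert was still present in the sequenced flies is not stated in the sources used here. Replicates were separate pools of one line, and p-values measure the spread between these pools. They treat the pools as independent, whereas replicate deviations in *CSB* females and *CSB* males correlated across genes (Pearson r = 0.533). The p-values do not account for this.

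Odorant-binding proteins are small secreted proteins that bind hydrophobic ligands, and in the antenna they are known for carrying odorants to sensory neurons. Members of the family are also expressed in taste organs, in the brain and in reproductive tissue. A fly head holds the compound eyes, the brain with its neurons and glia, head fat body, muscle, cuticle and sense organs. A difference in a whole-head library can arise in any of these, and fewer cells of a type and less RNA per cell cannot be told apart.

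*Obp56h* (FBgn0034475, 2R from 19815554 to 19816204 on the plus strand of BDGP6) had 0 reads in both *Obp56h*-/- male libraries against 110 and 106 in *CSB* males, at least 40.9-fold lower against a floor of 3 reads per library. In the *Obp56h*-/- females it had 1 read and none, while the *CSB* females had 54 and 90. Total counts were between 10127941 (*CSB* female replicate 1) and 25918919 (*Obp56h*-/- female replicate 1) per library. *CSB* male replicate 1 had the next lowest total (17174109). Defining markers of the head were present in all 8 libraries: those of photoreceptors summed to 24815 to 27640.0 CPM (counts scaled to the effective library size) and those of neurons to 4450.3 to 6502 CPM. The 5 markers of the antenna summed to 3.31 to 21.9 CPM, and *Obp83a* and *Os-C*, abundant in the antenna, were at 0.0554 to 6.0 and 0 to 3.75 CPM. On the first principal component (53.2% of the variance), *CSB* replicate 1 of females (92.5) and of males (72.7) stood apart from the other 6 libraries (-40.7 to -2.8). Calls are therefore also given for a fit that leaves out these 2 libraries. That fit keeps 1 control library per sex, so its spread comes from the null pools alone. Calls kept there say nothing on the spread among controls. The 129 genes were chosen from a fit that shares the remaining libraries, so a kept sign follows largely from that choice. In that fit 292 genes passed for the mean effect (2.16%), and of the 129 genes 52 passed, with the same sign for all 129.

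The 129 genes fell into a set of moderate changes and a set of large ones with few reads. A limit of 1 on the log2 scale (2-fold), chosen after the values were seen, put 59 genes in the first set, 37 higher and 22 lower. Their absolute log2 fold changes were between 0.41 and 0.98 (median 0.54), and their mean counts per library were between 72.1 and 197696 (median 1174). The other 70 genes, 7 higher and 63 lower, had a median of 19.8 counts.

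**Figure D1:**
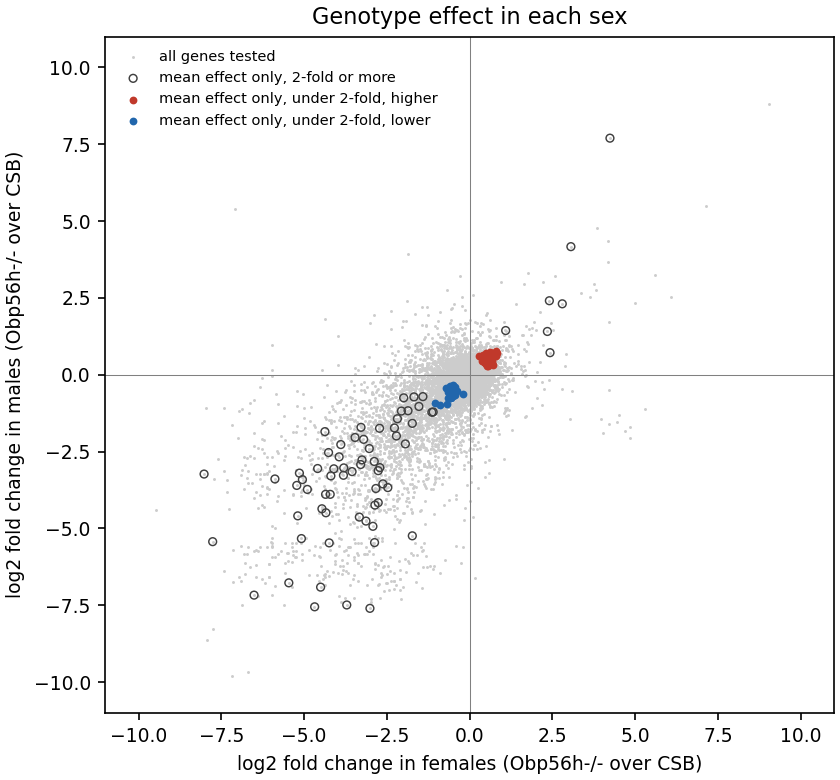
Log2 fold change of *Obp56h*-/- over *CSB* in females (x axis) and in males (y axis) for the 13536 genes tested. Red and blue points are the 59 genes under 2-fold that passed for the mean and in neither sex (37 higher, 22 lower), open circles the 70 such genes of 2-fold or more, which reach far into the lower left.

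For the 59 moderate genes the effect had the same sign in both sexes, and in 53 the unadjusted p was under 0.05 in each sex. The rule asks for a strong mean and no pass in either sex, which favours effects of like sign and size. Agreement between the sexes in this set is thus largely fixed by the rule, as is the lack of differences given below. The lowest adjusted p among the 59 was 0.0547 in females and 0.0647 in males. The difference between the sexes was at most 0.41 on the log2 scale, with a median half-width of 0.49 for its 95% interval, so differences of about the size of the effects themselves were not detectable. None of the 59 passed the test of that difference with edgeR, and 0 had an unadjusted p under 0.05, also with DESeq2, limma's voom and the likelihood ratio test. In 58 genes both *Obp56h*-/- replicates lay on one side of both *CSB* replicates in each sex, which 16.7% of all genes tested did. In 36 all 4 null libraries lay on one side of all 4 controls (8.65% of all genes tested). The 59 were chosen by their mean effect in these same libraries. Their separation follows largely from that choice and is no separate support. *MtnA* was the 1 gene whose groups overlapped, in males.

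The calls changed between fits. All 59 genes kept their sign in each of 19 alternative fits. Because they were chosen by their mean effect in these same libraries, a kept sign follows largely from that choice and is no separate support. Leaving out 1 library left between 9 calls (without *Obp56h*-/- female replicate 2, or without *Obp56h*-/- male replicate 1) and 59 (without *CSB* male replicate 2). Between these lay 15 without *CSB* female replicate 1, 25 without *Obp56h*-/- male replicate 2, 31 without *Obp56h*-/- female replicate 1, 35 without *CSB* female replicate 2 and 55 without *CSB* male replicate 1. With *CSB* replicate 1 of both sexes left out, 40 passed (28 higher, 12 lower). Scaling by library size alone, which shifted the median of all genes from -0.04 to -0.14, left 14 of the 37 higher genes and all 22 lower genes past the threshold. *Crk*, *CG14277* and *net* were among those that passed in all 19 fits.

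*CG14277* (FBgn0032008, 2L from 8242486 to 8243426), a protein-coding gene without a name, had the lowest p of the moderate genes. Its level was 187 and 247 CPM in *Obp56h*-/- females against 132 and 145 in *CSB* females, and 197 and 204 in *Obp56h*-/- males against 139.9 and 106 in *CSB* males. All 4 null libraries were above all 4 controls. The mean log2 fold change was 0.68 ± 0.12 (SE; 1.6-fold; edgeR, adjusted p = 0.00268), and it was 0.64 in females and 0.71 in males. *CG14277* overlaps *CG43057* on the other strand, and whether reads were counted by strand is not stated in the sources used here. Genes named below that also overlap a gene on the other strand include *CG4000*, *CG6424*, *Blos2*, *RpL23A*, *RpL28*, *CG7394*, *Mur89F* and *CG15721*.

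*Crk* (FBgn0024811, chromosome 4 from 210224 to 213165) encodes an adaptor that links tyrosine kinase signals to the actin cytoskeleton. It was at 142 and 159 CPM in *Obp56h*-/- females against 94.4 and 112 in controls, and at 148 and 150 CPM in *Obp56h*-/- males against 97.2 and 98.7. The groups did not overlap, within or across the sexes. The mean log2 fold change was 0.57 ± 0.10 (SE, adjusted p = 0.00305), with 0.54 in females (adjusted p = 0.0862) and 0.61 in males (adjusted p = 0.0705).

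*net*, a basic helix-loop-helix repressor known from wing vein patterning, was at 21.2 and 20.2 CPM in null females against 14.7 and 14.6, and at 21.6 and 20.1 CPM in null males against 11.8 and 13.5. *bol* encodes an RNA-binding protein known for its role in male meiosis, and its level was 582 and 711 CPM in null females against 429.7 and 506, and 809 and 781 CPM in null males against 507 and 515. For both genes every null library was above every control, and the log2 fold changes were 0.61 ± 0.12 (SE, adjusted p = 0.00732) and 0.55 ± 0.10 (SE, adjusted p = 0.00605). *bol* lies 5497 bp from *teq*, a gene that passed within a sex. With 1 library left out, the adjusted p of *bol* rose to at most 0.0649, without *Obp56h*-/- female replicate 2.

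*Dscam4*, a cell adhesion gene of the *Dscam* family, rose by 0.53 (adjusted p = 0.0101), and its span overlaps *CG7213*, which passed within a sex with a mean effect of 3.35. *sky* (0.44, adjusted p = 0.042) encodes a Rab GTPase-activating protein of synaptic vesicle trafficking, and *Blos2* (0.70, adjusted p = 0.029) a subunit of a complex of lysosome-related organelles. *nebu* (0.57, adjusted p = 0.01), with the synonym GLUT8 in the RefSeq gene table of Release 6, carries the name of a sugar transporter. *CG4000* (0.58, adjusted p = 0.00506) and *CG6424* (0.70, adjusted p = 0.00507) are known by their annotation numbers, and *CG6424* overlaps *CG46315*, as *sky* does *CG43739*. In the fit without *CSB* replicate 1 of both sexes *sky* (0.0558) and *Blos2* (0.0627) lost their calls, and the others named in this paragraph kept them.

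**Figure D2:**
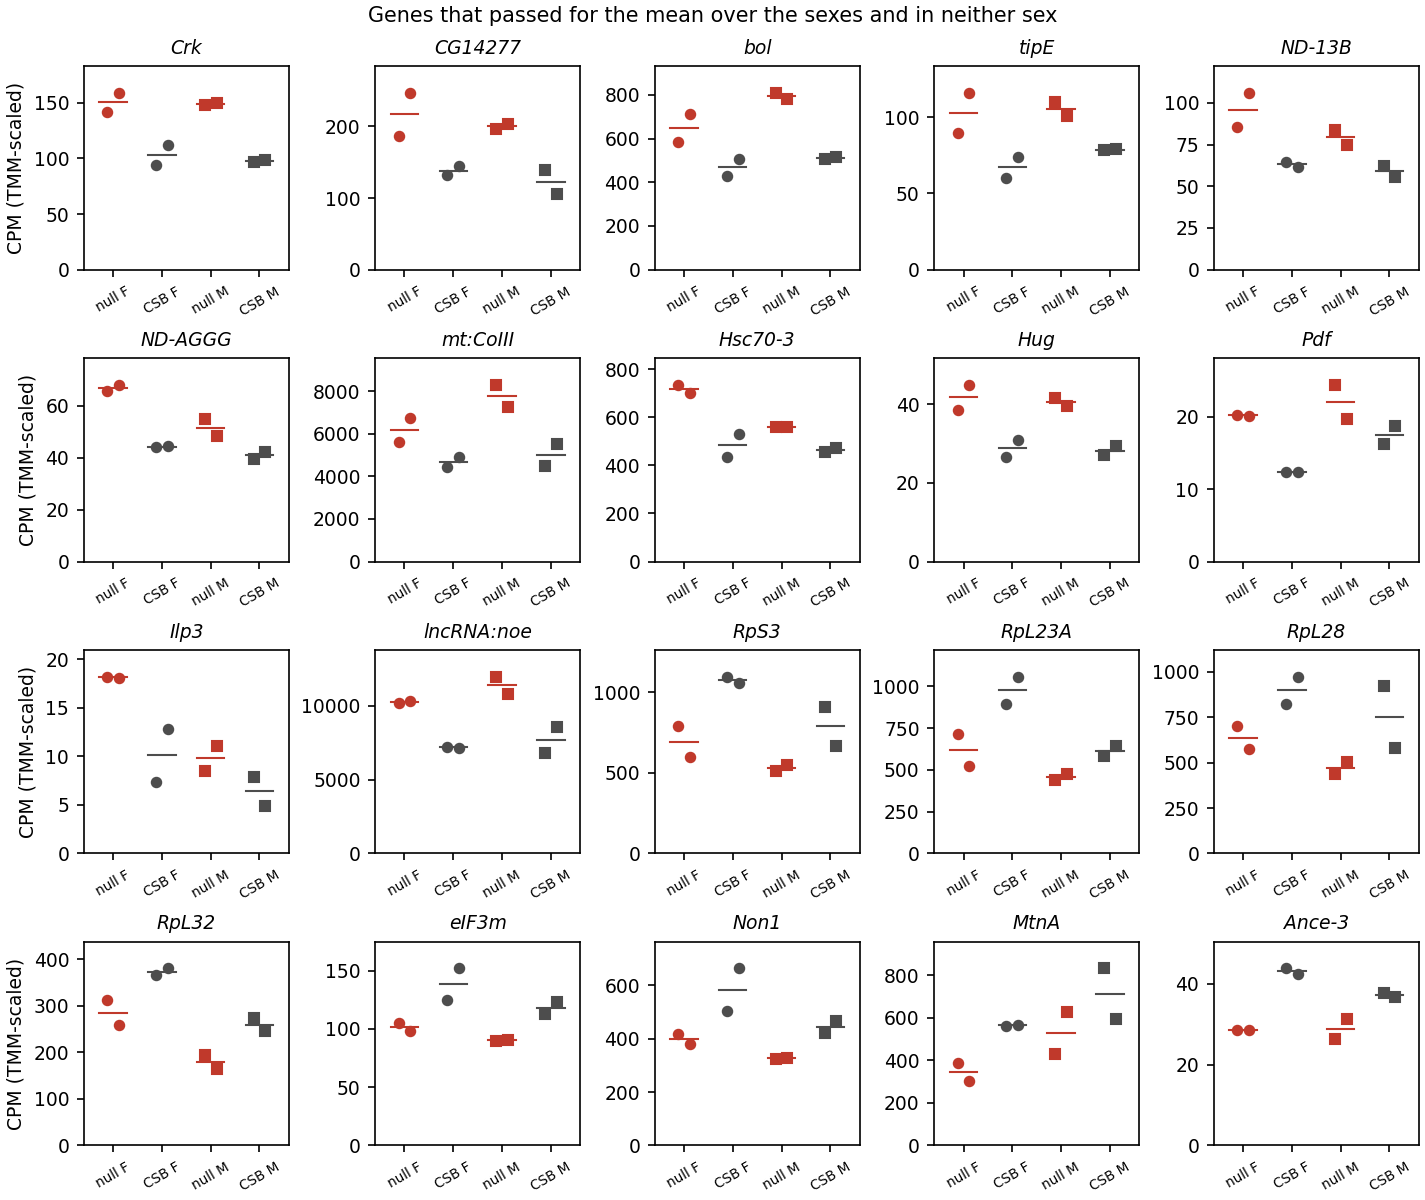
TMM-scaled CPM (y axis, from 0) of 20 moderate genes in the 8 libraries. Each panel shows the 2 replicates (points) and their mean (line) for *Obp56h*-/- (red) and *CSB* (grey) in females (circles) and males (squares). For *Crk*, *CG14277* and *bol* all red points lie above all grey points, and for *RpS3* and *RpL28* they lie lower within each sex but overlap across the sexes.

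The moderate genes that fell included parts of the translation machinery. Of 81 cytoplasmic ribosomal protein genes tested, 5 passed (6.17%, against 1.05% of all genes tested that were called lower) and all 5 were lower: *RpS3* of the small subunit and *RpL7*, *RpL23A*, *RpL28* and *RpL32* of the large subunit. None of the list rose (1 was higher at an unadjusted p under 0.05, and 1 by DESeq2, by voom and by the likelihood ratio test). The list as a whole had 76 genes with a negative and 5 with a positive estimate, 47 genes lower at an unadjusted p under 0.05 (58.0%, against 12.2% of all genes tested), and a median log2 fold change of -0.28, against -0.04 over all genes tested. Its median was -0.24 in females and -0.31 in males. The study itself lists *RpS3*, *RpL7* and *RpL28* as differentially expressed in females, from a likelihood ratio test. With the quasi-likelihood test used here, their adjusted p in females was 0.0875, 0.39 and 0.354. That these genes passed in neither sex thus holds for the present fit and not for the study's calls.

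*RpS3* (FBgn0002622, 3R) was at 788 and 601 CPM in *Obp56h*-/- females against 1098 and 1060.3 in *CSB* females, and at 512 and 548 CPM in *Obp56h*-/- males against 911 and 668 in *CSB* males. Both null replicates were below both controls in each sex, while null females overlapped control males. The log2 fold change was -0.60 ± 0.12 (SE, adjusted p = 0.00822). *RpL23A* was at 712 and 526 CPM in null females against 895 and 1058, and at 440 and 478 CPM in null males against 585 and 639.8 (log2 fold change -0.54 ± 0.11, SE, adjusted p = 0.0143). Its exons overlap a snoRNA and the snoRNA host *Uhg7*, and those of *RpL28* overlap snoRNAs as well.

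*RpL28* (-0.59, adjusted p = 0.0242), *RpL32* (-0.46, adjusted p = 0.0244) and *RpL7* (-0.66, adjusted p = 0.042) were also lower in both replicates of each sex. *RpL32* was at 312 and 258 CPM in null females against 365 and 380.1, and at 195 and 165 CPM in null males against 273 and 246. For *RpL28* and *RpL7*, *CSB* male replicate 1 stood high (922 and 1448 CPM, against 580.4 and 684 in replicate 2). All 5 genes kept their calls without *CSB* replicate 1 of both sexes (adjusted p from 0.00333 to 0.0303), but the log2 fold change of *RpL7* was then -0.38. With only *CSB* male replicate 1 left out it was -0.32 for *RpL7* (adjusted p = 0.101) and -0.38 for *RpL28* (adjusted p = 0.0321). Without *CSB* replicate 1 of both sexes, 14 genes of the list were called lower and 1 higher, with a median of -0.21.

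The count of ribosomal protein genes depended on single libraries and on the tool. It was 0 without *Obp56h*-/- female replicate 2 or without *Obp56h*-/- male replicate 1, 1 without *Obp56h*-/- male replicate 2, 8 without *Obp56h*-/- female replicate 1, 4 without *CSB* female replicate 1, 5 without *CSB* female replicate 2, 13 without *CSB* male replicate 1 and 32 without *CSB* male replicate 2. *RpL28* and *RpL7* lost their calls without either *CSB* female replicate, and *RpL32* without replicate 1. The count was 29 with DESeq2, 16 with voom and 27 with library size alone. DESeq2 also called more genes over all genes tested, as given in the last section. The summed level of the list was 43259.5 and 37712 CPM in *Obp56h*-/- females against 47330.4 and 48005 in *CSB* females, and 26561 and 27367 CPM in *Obp56h*-/- males against 36725 and 31769.8 in *CSB* males. Within each sex the null libraries were lower, and every female library was above every male library.

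*Non1* and *eIF3m* fell as well, and both were named after their values were seen. *Non1*, a GTPase of ribosome biogenesis, was at 419 and 379.7 CPM in null females against 503 and 664, and at 323 and 329 CPM in null males against 422 and 465 (-0.50 ± 0.11, SE, adjusted p = 0.0175). *eIF3m*, a subunit of an initiation factor, was at 105 and 98.0 CPM in null females against 125 and 152, and at 89.7 and 90.8 CPM in null males against 113 and 123 (-0.42 ± 0.10, SE, adjusted p = 0.0418). All 4 null libraries of both genes were below all 4 controls, and both kept their calls without *CSB* replicate 1 of both sexes. The 70 mitochondrial ribosomal protein genes tested had a median of 0.00 with 35 estimates of each sign. None of them passed with edgeR, DESeq2 or voom, 1 passed with the likelihood ratio test, while 6 were higher and 1 lower at an unadjusted p under 0.05.

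Some subunits of the electron transfer chain rose. Of 92 genes of the chain and ATP synthase tested, 5 passed (5.43%, against 0.879% of all genes tested that were called higher) and all were higher, 4 of them for the mean effect alone: *ND-13B*, *ND-AGGG*, *mt:ND1* and *mt:CoIII*. *ND-13B*, *ND-AGGG* and *mt:ND1* encode subunits of NADH dehydrogenase, and *mt:CoIII* a core subunit of cytochrome c oxidase. The fifth, *ox*, passed in females as well. No gene of the list was called lower with edgeR, while 3 were lower at an unadjusted p under 0.05, 1 by DESeq2, 1 by voom and 2 by the likelihood ratio test.

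*ND-13B* was at 85.3 and 106 CPM in *Obp56h*-/- females against 64.7 and 61.4 in controls, and at 83.7 and 75.0 CPM in *Obp56h*-/- males against 62.1 and 55.6. *ND-AGGG* was at 65.8 and 68.1 CPM in null females against 44.0 and 44.5, and at 54.8 and 48.4 CPM in null males against 39.6 and 42.1. For both genes the 4 null libraries were above the 4 controls. The log2 fold changes were 0.52 ± 0.11 (SE, adjusted p = 0.013) and 0.47 ± 0.10 (SE, adjusted p = 0.0178).

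The mitochondrially encoded *mt:CoIII* was at 5623 and 6759.9 CPM in null females against 4440.4 and 4921, and at 8305 and 7280.1 CPM in null males against 4479.5 and 5497 (0.52 ± 0.11, SE, adjusted p = 0.0146). *mt:ND1* was at 2296 and 3933 CPM in null females against 1971 and 1926, and at 3461 and 3014 CPM in null males against 2446 and 1507 (0.69 ± 0.16, SE, adjusted p = 0.0256). Each null library was above both controls of its sex, and the replicates of *mt:ND1* were far apart in null females and in control males. The log2 fold change of *mt:ND1* was between 0.47 without *Obp56h*-/- female replicate 2 (adjusted p = 0.222) and 0.91 without *CSB* male replicate 1. *mt:CoIII* shares positions with *mt:ATPase6* in the annotation.

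The whole list had 67 positive and 25 negative estimates and a median of 0.10. Leaving out *CSB* replicate 1 of both sexes, 11 genes passed, all higher, and the median was 0.19. With library size alone the estimates were even (44 positive, 48 negative) and 1 gene passed. Leaving out 1 library gave between 1 gene higher (without *Obp56h*-/- female replicate 2 or male replicate 1) and 15 (without *CSB* male replicate 2), with 3 without *Obp56h*-/- female replicate 1, 2 without *CSB* female replicate 1 and 13 without *CSB* male replicate 1. *CG41128* (0.44, adjusted p = 0.0338), with the RefSeq synonym Minos1b, rose, and *CG7394* (-0.55, adjusted p = 0.0283), with the synonym TIM14, fell, the latter not passing without *CSB* replicate 1 of both sexes (0.093).

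**Figure D3:**
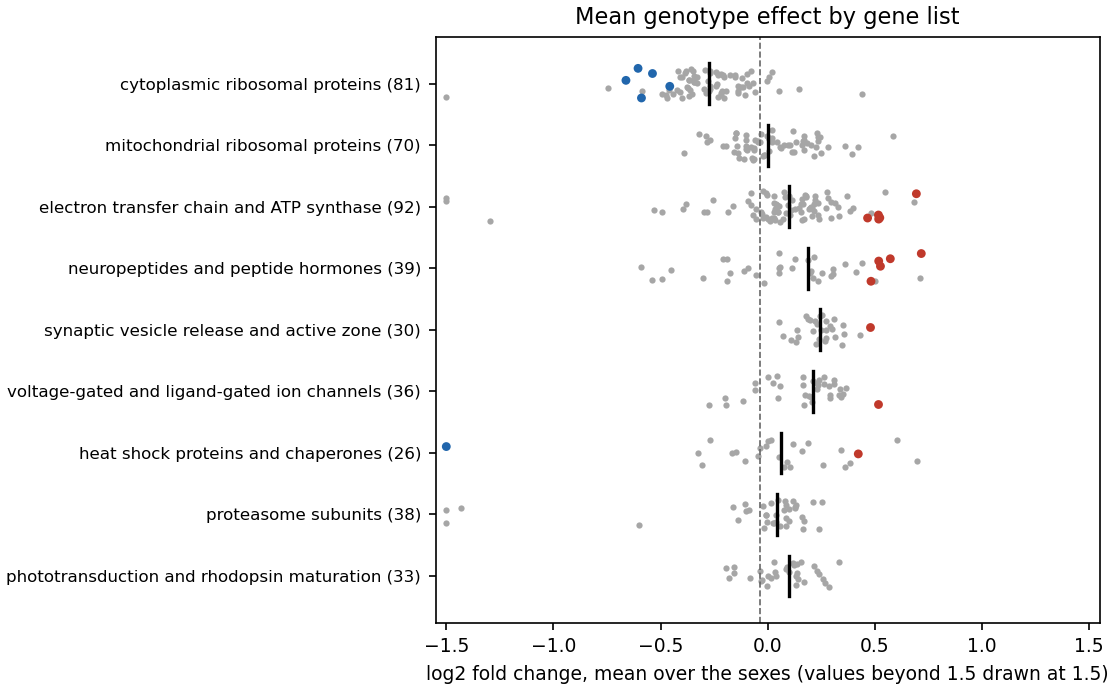
Mean log2 fold change over the sexes (x axis) of the genes in 9 lists, with the number tested in parentheses. Each point is a gene, coloured where its adjusted p was under 0.05 (red higher, blue lower), black bars are list medians and the dashed line is the median of all genes tested (-0.04). The ribosomal proteins have the lowest median (-0.28) and the synaptic genes the highest (0.25).

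Genes of neuronal signaling had mostly positive estimates. Of 39 neuropeptide and peptide hormone genes tested, 5 passed (12.8%, against 0.879% of all genes called higher), all higher. For the mean effect alone these were *Hug*, *Pdf* and *Ilp3*, while *CCHa2* and *Nplp3* also passed in females. *Hug* encodes hugin, a peptide of neurons that modulate feeding, *Pdf* the main output peptide of circadian clock neurons, and *Ilp3* an insulin-like peptide of neurosecretory cells in the brain. None of the list was called lower (2 at an unadjusted p under 0.05, and 0 by DESeq2, voom or the likelihood ratio test).

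*Hug* was at 38.6 and 45.0 CPM in *Obp56h*-/- females against 26.7 and 30.9 in *CSB* females, and at 41.6 and 39.6 CPM in *Obp56h*-/- males against 27.2 and 29.3 in *CSB* males. *Pdf* was at 20.2 and 20.1 CPM in null females against 12.3 and 12.4, and at 24.4 and 19.6 CPM in null males against 16.2 and 18.7. All 4 null libraries were above all 4 controls for both peptides, but for *Pdf* the margin in males was 0.33 on the log2 scale against 0.70 in females. The difference between these was 0.37, with a 95% interval from -0.14 to 0.88.

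*Ilp3* was at 18.2 and 18.1 CPM in null females against 7.37 and 12.8, and at 8.53 and 11.1 CPM in null males against 7.91 and 4.91. Its groups separated within each sex and overlapped across the sexes. The log2 fold changes were 0.53 ± 0.11 for *Hug* (SE, adjusted p = 0.0121), 0.52 ± 0.12 for *Pdf* (SE, adjusted p = 0.0309) and 0.72 ± 0.18 for *Ilp3* (SE, adjusted p = 0.0482). In the fit without *CSB* replicate 1 of both sexes the adjusted p was 0.0263 for *Hug*, 0.0631 for *Pdf* and 0.0131 for *Ilp3*. *Pdf* was the 1 gene of 17 in the circadian clock list that passed (5.88%), and *Ilp3* the 1 gene of 21 in the insulin and TOR list (4.76%). Of all genes tested 0.879% were called higher.

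*tipE*, an auxiliary subunit of the voltage-gated sodium channel, rose by 0.52 ± 0.11 on the log2 scale (SE, adjusted p = 0.0186). It was the 1 ion channel gene of 36 tested that passed (2.78%, against 0.879% of all genes called higher). It was at 89.4 and 116 CPM in null females against 60.2 and 74.1, and at 110.2 and 101 CPM in null males against 78.2 and 79.3. Every null library was above every control. *tipE* overlaps *CG18675*. The ion channel list had 30 positive and 6 negative estimates and a median of 0.21. All 30 genes in the list of synaptic vesicle release and the active zone had positive estimates (median 0.25). Of these, 19 were higher at an unadjusted p under 0.05 (63.3%, against 6.46% of all genes tested). The 1 gene of this list that passed was *ple*, the tyrosine hydroxylase of dopamine synthesis, in females and for the mean. It is an enzyme of transmitter synthesis, and no gene of vesicle release or the active zone itself passed.

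The number of calls in these neuronal lists varied with the tool and the libraries. Ion channel calls numbered 11 with DESeq2, 2 with voom and 5 with the likelihood ratio test, and synaptic calls 12, 3 and 5. DESeq2 and the likelihood ratio test also called more genes over all genes tested, as given in the last section. With 1 library left out there were 0 to 6 ion channel calls and 0 to 8 synaptic calls. The synaptic list had 26 positive and 4 negative estimates and a median of 0.17 without *CSB* replicate 1 of both sexes, and 28, 2 and 0.15 with library size alone. With library size alone the neuropeptide list had 22 positive and 17 negative estimates (2 genes passed) and the ion channel list 25 and 11. The 4 neuron markers (*elav*, *brp*, *nSyb* and *Syt1*) had positive estimates, and 0 passed, while 3 were higher at an unadjusted p under 0.05. These 3 (*brp*, *nSyb* and *Syt1*) encode synaptic proteins, so they are no measure of neuronal content separate from the synaptic list. The estimate of *elav* was 0.18 ± 0.10 (SE). The 4 markers summed to 5441 and 6423 CPM in null females against 4450.3 and 5348 in controls. In null males they summed to 6502 and 6429 CPM against 5244 and 5233. The part of this in the neuronal results was not tested. The neuropeptide count was between 1 (without *Obp56h*-/- female replicate 2) and 10 (without *CSB* male replicate 1 or 2), and 2 without each of the other *Obp56h*-/- libraries or *CSB* female replicate 1.

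Among noncoding RNAs, *lncRNA:noe*, a transcript of the nervous system, was at 10211 and 10324 CPM in null females against 7220.4 and 7162, and at 11981 and 10812 CPM in null males against 6816 and 8544. All null libraries were above all controls (0.54 ± 0.10, SE, adjusted p = 0.00732). *lncRNA:Hsromega*, the heat-inducible nuclear RNA of the omega speckles, was at 8239.9 and 10609 CPM in null females against 6135 and 7996, and at 12795 and 13684 CPM in null males against 9667 and 8321 (0.49 ± 0.12, SE, adjusted p = 0.0373). Its null libraries were above the controls of their own sex. *lncRNA:CR32385* rose by 0.79 (adjusted p = 0.00955). All 3 kept their calls without *CSB* replicate 1 of both sexes, and with 1 library left out their adjusted p was at most 0.083, 0.25 and 0.0509.

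*Hsc70-3*, the Hsp70 chaperone of the endoplasmic reticulum (BiP), was at 735 and 701 CPM in null females against 436 and 529, and at 558 and 559 CPM in null males against 454 and 471. The 4 null libraries were above the 4 controls. Its log2 fold change was 0.42 ± 0.10 (SE, adjusted p = 0.0317), and 0.57 in females and 0.27 in males, a difference of 0.30 with a 95% interval from -0.12 to 0.72. It was the 1 moderate gene on the X chromosome, where 15.4% of the genes tested lie. Of 26 chaperone genes 1 other passed, *DnaJ-H*, which fell in each sex. In each direction 3.85% of the list was called, against 0.879% higher and 1.05% lower of all genes tested. *Alg10*, a glucosyltransferase of the N-glycan precursor, fell by 0.93 on the log2 scale (adjusted p = 0.0326) and had between 2.46 and 4.41 CPM in null libraries against 3.96 to 6.74 in controls. It overlaps *wls* on the other strand.

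*MtnA*, a metallothionein that binds copper and other metals, was at 387 and 302 CPM in null females against 562 and 567, and at 429.5 and 629 CPM in null males against 832 and 593. The females separated, and in males the replicates overlapped. The mean log2 fold change was -0.57 ± 0.14 (SE, adjusted p = 0.0332), and without *CSB* replicate 1 of both sexes the adjusted p was 0.117. It was the 1 gene that passed of 22 in the list of iron, copper and zinc handling (4.55%, against 1.05% of all genes called lower).

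Further moderate genes that fell have known roles outside this list. *Adgf-A* (-0.55, adjusted p = 0.0258) encodes a secreted adenosine deaminase and overlaps *Adgf-A2*, *Ance-3* (-0.48, adjusted p = 0.0192) encodes a relative of angiotensin-converting enzyme, and *Tsp42Eh* (-0.57, adjusted p = 0.0431) a tetraspanin. *tsl* (-0.41, adjusted p = 0.0466) acts in terminal patterning of the embryo, and *rost* (-0.54, adjusted p = 0.0287) in myoblast fusion. *rost* was at 44.0 to 47.0 CPM in null females against 60.1 to 62.4, and at 4.76 to 5.63 CPM in null males against 6.86 to 9.56, which on the log2 scale was -0.43 (females) and -0.66 (males). *Ance-3* and *Adgf-A* kept their calls without *CSB* replicate 1 of both sexes, and *Tsp42Eh* (0.093), *tsl* (0.0665) and *rost* (0.131) did not. With 1 library left out, the highest adjusted p of these 5 genes was between 0.174 (*Ance-3*) and 0.285 (*tsl*). Of the 59 moderate genes, 21 have an annotation number as their symbol.

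The moderate genes were spread unevenly over the chromosomes. Chromosome arm 3L held 26 of the 59 (44.1%), against 19.7% of all genes tested and 18.6% of genes averaging 500 counts or more. The share was similar among the higher (17 of 37, 45.9%) and the lower genes (9 of 22, 40.9%), and 18 of the 26 passed without *CSB* replicate 1 of both sexes. Their positions ran from 230971 to 24977118, with 6 genes in each of the first 4 stretches of 5 Mb and 2 in the next. Of the 161 genes that passed in at least 1 sex, 27.3% lay on 3L. No test of this share was made, and the reason for it was not tested.

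Few lay next to a gene that passed in a sex. Of the 59 moderate genes 5 (8.47%) lay within 10000 bp of one, against 4.29% of genes that passed in no comparison. Besides *Dscam4* and *bol* these were *CG43071* (0.76, adjusted p = 0.0495), 546 bp from the antimicrobial gene *DptA*, *CG13895* (-0.58, adjusted p = 0.0291), 395 bp from *CkIIalpha-i3*, and the pseudogene *28SrRNA-Psi:CR45851* in the ribosomal DNA. Of all 129 genes, 9 (6.98%) lay so close.

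Among the 7 genes that were higher by 2-fold or more, 3 encode antimicrobial peptides of the humoral immune response. *AttA* was at 6.53 and 6.87 CPM in *Obp56h*-/- females against 2.85 and 0.248, and at 3.64 and 5.94 CPM in *Obp56h*-/- males against 2.31 and 1.31 (1.88 ± 0.41, SE, adjusted p = 0.0175). *CecB* had 44 and 17 reads in null females against 2 and 0, and 23 and 34 reads in null males against 0 and 0, at least 8.34-fold higher in males against the floor. *CecC* had 48 and 29 reads in null females against 1 and 7, and 14 and 31 reads in null males against 0 and 2. In all 3 genes every null library was above every control. Of the 70 genes of 2-fold or more, 55 had all null libraries on one side of all controls, against 8.65% of all genes tested. These genes too were chosen by their mean effect in these libraries, so their separation is no separate support. The size of the *AttA* effect depended on *CSB* females, with 3.07 on the log2 scale without their replicate 1, 1.32 without their replicate 2, and 3.31 without *CSB* replicate 1 of both sexes.

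*AttA*, *CecB* and *CecC* lie 647, 746 and 3915 bp from *Dro*, *CecA2* and *CecA2*, which passed in a sex, and are members of families with similar sequences, among which reads may be split. Of 32 antimicrobial peptide genes tested 11 passed, all higher (34.4%, against 0.879% of all genes called higher). None was called lower with edgeR or voom, while 2 were lower by DESeq2, by the likelihood ratio test and at an unadjusted p under 0.05. The list's median was 0.14, so that its calls came from a subset. Without *CSB* female replicate 2 the median was -0.02.

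The other 4 were *snoRNA:CG32479-a* (2.41 ± 0.43, SE, adjusted p = 0.00377), *asRNA:CR44030* (2.56 ± 0.56, SE, adjusted p = 0.0186), which lies opposite *fuss*, *lncRNA:CR44544* (1.26 ± 0.27, SE, adjusted p = 0.0151) and *Lsp1alpha* (1.57 ± 0.38, SE, adjusted p = 0.0393), a larval storage protein. The snoRNA had 323, 237, 210 and 122 reads in the null libraries and 35, 47, 0 and 57 in the controls. Its neighbour *snoRNA:CG32479-b*, 759 bp away, moved the other way (-2.17) and passed in males. The *snoRNA:CG32479-a* effect was 6.34 without *CSB* male replicate 2, which left 1 control male at 0 reads. *Lsp1alpha* had an effect of 2.43 in females and 0.72 in males, a difference of 1.71 (95% interval from 0.10 to 3.33, unadjusted p = 0.0388), and its mean effect was 2.59 without *CSB* female replicate 1 and 0.97 without *CSB* female replicate 2. All 7 genes kept their calls without *CSB* replicate 1 of both sexes. With 1 library left out the highest adjusted p was between 0.0535 (*snoRNA:CG32479-a*) and 0.206 (*asRNA:CR44030*).

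The 63 genes that were lower by 2-fold or more had few reads, with a median of 19.2 counts and 33 under 20 counts. In 60 of them *CSB* replicate 1 was above *CSB* replicate 2 in both sexes, which held for 32.0% of all genes tested, and for 73.4% of those under 20 counts. Without *CSB* replicate 1 of both sexes only 5 of the 63 passed, although all kept their sign, and their median absolute log2 fold change went from 3.42 to 1.87. *Mur89F*, a mucin-related gene, was at 0.531 and 1.05 CPM in null females against 10.6 and 1.41, and at 0.606 and 0.848 CPM in null males against 7.2 and 3.21 (adjusted p = 0.00243, and 0.0834 without these 2 libraries).

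**Figure D4:**
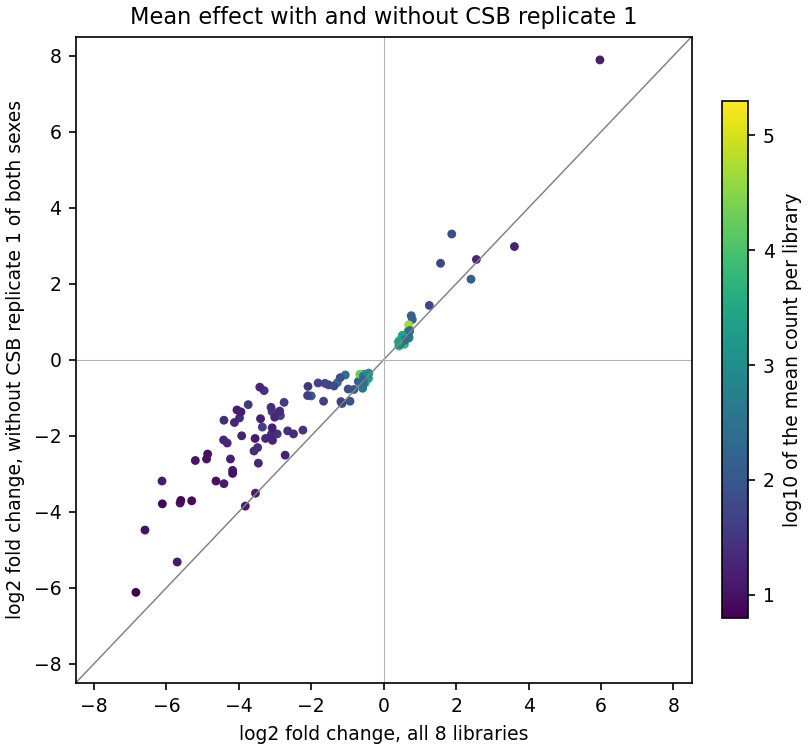
Mean log2 fold change of the 129 genes with all 8 libraries (x axis) and without *CSB* replicate 1 of both sexes (y axis), with colour for the log10 of the mean count and the line of equal values. The 59 moderate genes, with absolute values of 0.41 to 0.98 on the x axis, lie near the line, whereas most genes with few reads on the left lie above it, closer to 0.

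The genes with few reads included ones known from other tissues. *abd-A*, a homeotic gene of the abdomen, was at 10.1 and 0.868 CPM in *CSB* females and 4.23 and 2.04 in *CSB* males, against 0.222 to 0.979 in null libraries. *Tpl94D*, a chromatin protein of spermatids, was at 2.58 and 0.992 CPM in *CSB* females and 2.75 and 0.875 in *CSB* males, against 0.0932 to 0.49. The markers of ovary and eggshell summed to 12.1 and 8.13 CPM in *CSB* replicate 1 of females and males and to 2.77 to 5.15 in the other 6 libraries, and those of testis and accessory gland to 11.1 and 10.3 against 4.06 to 7.92. None of these marker genes passed. In *CSB* male replicate 1, *Yp1*, a yolk protein gene of females, was at 397 CPM, against 4.6 to 11.8 in the other males. The part of these libraries in the low-count results is given by the fits without them, and the source of the reads was not tested.

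The 5 genes that passed without *CSB* replicate 1 of both sexes were *CG33017*, *Cpr92F*, *Nazo*, *eIF4E4* and *Grl65a*, the last 3 named after their values were seen. *CG33017* had the lowest p of all 129 genes, with 0.531 and 0.609 CPM in null females against 6.63 and 1.36, and 0.373 and 0.268 CPM in null males against 3.57 and 2.09 (-2.94 ± 0.48, SE, adjusted p = 0.00176, and -1.95 and 0.0387 without the 2 libraries). *Cpr92F*, a cuticular protein gene, was at 2.82 and 3.38 CPM in null females against 7.74 and 5.62, and at 2.56 and 1.7 CPM in null males against 3.96 and 5.88 (-1.15 with and without the 2 libraries). In both genes all null libraries were below all controls.

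*Nazo* is an antiviral effector, *eIF4E4* an isoform of the cap-binding factor and *Grl65a* a gustatory receptor-like gene. *Nazo* had 1, 2, 0 and 0 reads in the null libraries against 16, 50, 21 and 7 in the controls. *eIF4E4* had 3, 1, 1 and 5 reads against 15, 33, 25 and 28, and *Grl65a* had 3, 0, 5 and 0 against 19, 43, 17 and 22. These genes are neighbours on the minus strand of 3L, *eIF4E4* from 6664224 to 6665641 and *Grl65a* from 6666638 to 6667816. Whether their changes are separate was not tested. In these 3 genes every null library was below every control, which for genes chosen in these same libraries is no separate support. *CG31551*, *CG43332*, *CG1894*, *mas*, *sha*, *Cpr49Ac* and the gene FBgn0037645, which is in no annotation used here, lost their calls (adjusted p from 0.0665 to 0.673). Of 114 odorant, gustatory and ionotropic receptor genes tested, 99 had negative estimates and none passed. At an unadjusted p under 0.05, 35 were lower (30.7%, against 12.2% of all genes tested). With the likelihood ratio test 24 passed, with DESeq2 11 and with voom 0. The first 2 tools also called more genes over all genes tested, as given in the last section. Without the 2 libraries 63 were negative and the median went from -1.20 to -0.09.

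At the threshold, *CG43071* (0.76) and *CG11262* (-5.30) were the last inside, both with an adjusted p of 0.0495, and *CG14395* (-4.52, 0.0503) and *CG15721* (-3.92, 0.0505) the first outside.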

How the data were processed

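RNA from heads was depleted of ribosomal RNA by the authors and sequenced in 8 libraries. Per the study's methods, reads were trimmed and filtered with AfterQC, screened with bbduk, aligned to genome release 6 (annotation 6.13) with GSNAP and, where unique, assigned to genes with Subread. The authors deposited whole-number counts per gene for 17490 genes, without normalization, and 0 columns of values were left out. Positions and classes came from Ensembl's BDGP6 annotation (17288 genes matched). Groups came from the labels.

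Tests used edgeR 4.0.16 under R 4.3.3 on these counts (filterByExpr with a smallest count of 10, TMM, a quasi-likelihood fit of 4 groups, Benjamini-Hochberg adjustment over 13536 genes). CPM are scaled by TMM, and the floor of 3 counts covers counting error only. The procedure was tested on simulated counts. These were drawn independently for each library, without the deviation of *CSB* replicate 1 or the correlation between control pools. The simulation therefore cannot show how the calls behave under either. With 2 replicates per group, precision is limited by their number. Counts of replicates differed by more than sampling noise (chi-square from 9.33 to 41.1 for each degree of freedom).

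Named genes were those of the set with the smallest p (8 in each direction) or largest change (5 in each direction) among genes averaging 20 counts or more per library and groups that did not overlap in either sex, members of 33 gene lists, 2 genes on either side of the threshold, *Obp56h* and markers (10 lists). Other names were chosen after the values were seen. The set and the lists were chosen with earlier results of these data known. Alternatives tried included edgeR's likelihood ratio test, voom with sample weights from limma 3.58.1, DESeq2 1.42.0, RLE factors, library size alone, other filters, an additive model, a replicate block, GeTMM with a likelihood ratio test, an adjusted p under 0.01, and libraries left out. No sequence is shown. Plots were drawn with matplotlib 3.10.9.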

Additional observations from a re-analysis of the deposited data

Results flagged for a closer look

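The effect of genotype differed between the sexes for 5 of 13536 genes (0.0369%; edgeR's quasi-likelihood test of the difference, adjusted p under 0.05), none of them in the set of 129. The gene FBgn0085757, in no annotation used here, had a female minus male difference of -4.29 on the log2 scale (adjusted p = 1.46e-08), with 5.06 and 4.82 CPM in *Obp56h*-/- females and between 63.8 and 92.2 CPM in the other libraries. *tRNA:Tyr-GTA-1-9* had a difference of -12.50 (adjusted p = 0.0251), with 11.3 CPM in 1 *Obp56h*-/- male library and 0.0932 in the other, 9.67 and 5.04 CPM in *CSB* females and at most 0.146 CPM elsewhere, and it overlaps *Ntl*. *Mdr50*, an ABC transporter gene, had a difference of -2.22 (adjusted p = 0.0342), and *Sardh*, sarcosine dehydrogenase, of -2.42 (adjusted p = 0.0442), both lower in null than control females in every library. *CG4757* had a difference of 1.48 (adjusted p = 0.0342), with -1.78 in males and -0.30 in females.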

How the results depend on the processing

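With all libraries, 261 genes passed for the mean effect, 129 of them in neither sex, and 5 for the difference between the sexes. In that order, the counts were 1144, 812 and 30 with a likelihood ratio test, 852, 606 and 17 with DESeq2, 959, 503 and 70 without a filter, 166, 75 and 1 if each library had to reach 10 counts, 729, 496 and 14 with GeTMM and a likelihood ratio test (24.3% of the 729 higher), and 128, 67 and 1 at an adjusted p under 0.01. With library size alone 256, 163 and 2 genes passed, 30.1% of the 256 higher against 45.6% of the 261. Leaving out 1 library gave 137 (without *Obp56h*-/- female replicate 2) to 1256 (without *CSB* male replicate 2) genes for the mean, 45 to 631 in neither sex and 1 to 171 for the difference, where a group left with 1 library was assumed to vary like the others. Without *CSB* replicate 1 of both sexes 292, 117 and 15 genes passed, and 65.4% of the 292 were higher. RLE factors, voom and, for the mean, the additive model, which has no within-sex effects, kept each count within 1.5 times. Replicate numbers did not pair the *Obp56h*-/- pools with those of other groups: deviations from group means correlated between -0.012 and 0.088. Between *CSB* females and males the correlation was 0.533, so these control pools may not be independent. With a replicate block the counts were 524, 298 and 18. The 44 named genes kept their sign in every fit that tested them. Most were chosen by their effects in these libraries, so the kept signs are no separate support. The requirement of 10 counts in each library left 26 of them, and the other alternatives tested all 44. The cause of these changes was not tested. The smallest effect among the 129 genes was 0.41 on the log2 scale.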
